A study of Mus musculus with 6 samples.

Results

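The 9 genes described here, known from microglia, the resident macrophages of the brain, are Tmem119, Olfml3, Fcrls, Sall1, Gpr34, Slc2a5, Golm1, Siglech and Sparc. They are 9 of the 50600 genes in the count table, matched by symbol with 1 row each. The genes were chosen by their known place in microglia with their islet and fat values in these same libraries already seen, so their differences between tissues are described and carry no test. Macrophages were taken from 2 tissues, pancreatic islets and epididymal fat (the depot beside the testis), of 12-week-old C57BL/6J males on chow diet, with no treatment. Cells of both tissues were sorted as live CD45+, F4/80+ and CD64+ cells, and no transgene or deletion is named for either group. RNA-seq libraries were made from 10 ng of total RNA with a kit that keeps the strand, 3 per tissue, numbered 2, 4 and 6 in each. The labels give equal numbers a shared batch name, and the design text says that both tissues came from the same animals. The number of animals per library was not given in the sources used here.

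Microglia settle in the brain before birth and keep their identity under transforming growth factor beta (TGF-beta), which acts through the receptor genes Tgfbr1 and Tgfbr2 and SMAD factors. Sall1, a zinc finger factor, holds that identity in place. Several of the other genes are used as microglia markers because macrophages elsewhere, including those at the borders of the brain, make little of them. Islet macrophages are a resident population that lies against the endocrine cells and the islet vessels.

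Total counts ran from 4089980 to 6923475 in the islet libraries and from 7450890 to 9235591 in the fat libraries. The surface genes of the sort were present in all 6: Ptprc (CD45), Adgre1 (F4/80) and Fcgr1 (CD64) had edgeR quasi-likelihood adjusted p = 0.0639, 0.265 and 0.264 between tissues. Ptprc passed as higher in islet with DESeq2, limma voom and without islet replicate 6 (adjusted p = 0.0138, 0.0394 and 0.00475). Adgre1 passed as higher without islet replicate 6 (0.0261), and Fcgr1 without islet libraries 2 and 4 (0.0281). Islet library 6 stood apart from islet libraries 2 and 4 in 5 heat shock genes picked after their values were seen (Hspa1a, Hspa1b, Hsph1, Dnajb1 and Hspb1). Their share of counts was 6.20% in islet library 2, 8.58% in library 4 and 0.337% in library 6, with exact binomial 95% intervals of 6.18 to 6.22, 8.55 to 8.61 and 0.333 to 0.341. In the fat libraries they took 0.0233% to 0.0309%. Such intervals, and floors given later, reflect counting error alone: the labels name no molecular identifiers, and reads without them are not independent molecules.

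Of the 9 genes, 8 passed the filter on low counts, and Sall1 did not. Levels are given as CPM, counts scaled to a common library size after TMM, a correction for library composition. In 5 genes every islet library lay above every fat library, and in 3 every islet library lay below. Over all 12152 genes tested, those shares were 18.2% and 22.3%. Since the genes were picked with these values known, nothing is read from their count. In a sorted bulk sample, fewer cells that make a transcript and less of it per cell cannot be told apart.

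**Figure D1:**
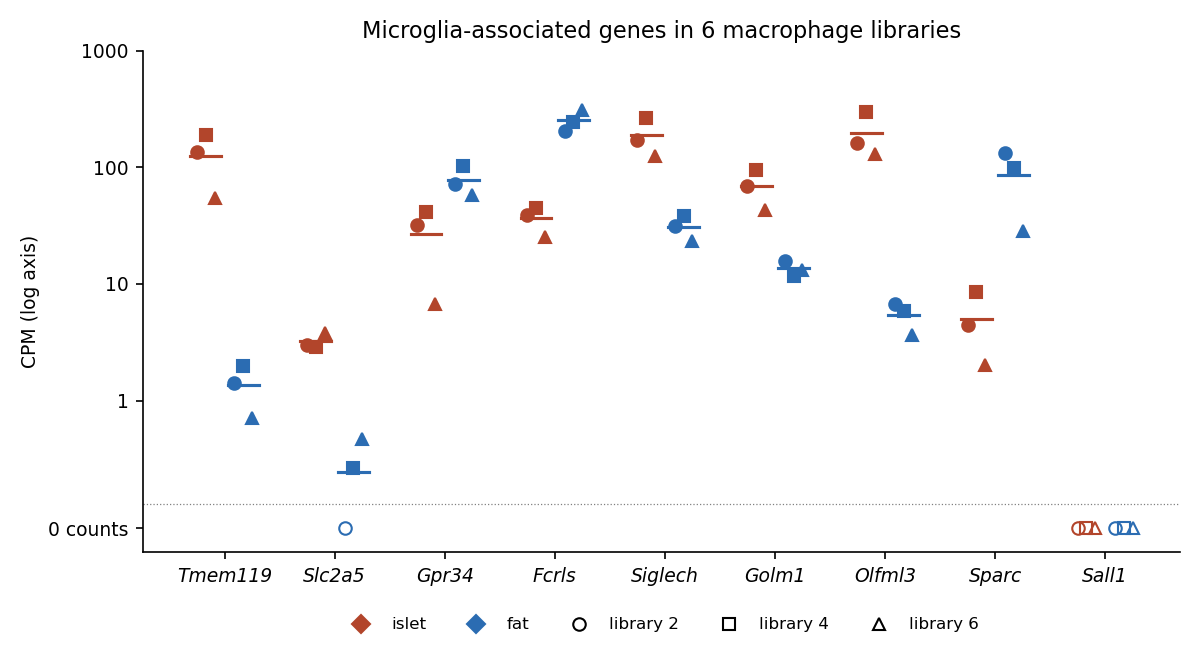
CPM (log axis) of the 9 genes in islet (red) and fat (blue) libraries 2 (circle), 4 (square) and 6 (triangle), with bars at the tissue means and open symbols for libraries with 0 counts. Tmem119 runs from 54.3 to 189 CPM in islet against at most 1.99 in fat, Fcrls lies higher in fat, and Sall1 has no counts.

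Among the membrane proteins, Tmem119, a single-pass protein of unsettled function in microglia, showed the widest gap. Its level was 134, 189 and 54.3 CPM in islet libraries 2, 4 and 6 and 1.42, 1.99 and 0.706 CPM in fat libraries 2, 4 and 6. The lowest islet library was 27.3 times the highest fat library. The fitted log2 difference, islet minus fat, was 6.51 ± 0.60 (SE), a 91.1-fold difference. The fat side of that value rests on 36 counts in all, against 1729 in islet. Tmem119 is in GRCm38 at chromosome 5, 113793729 to 113800516.

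Siglech, a sialic acid-binding lectin that signals through the adaptor encoded by Tyrobp, is also made by plasmacytoid dendritic cells. Islet libraries 2, 4 and 6 held 173, 266 and 124 CPM of it, and the fat libraries 31.2, 38.3 and 23.4 CPM. All fat libraries held at least 199 counts of it, the groups did not overlap, and the fitted difference was 6.05-fold (log2 2.60 ± 0.35). Of 14 plasmacytoid dendritic cell markers, 5 were tested, of which Runx2, Bst2, Irf7 and Lair1 rose in islet. Tcf4, the factor that defines these cells, fell by 1.14 on the log2 scale (edgeR adjusted p = 0.0111). Over all genes tested, 8.97% rose and 10.5% fell at an edgeR adjusted p below 0.05. The 14 markers summed to 472, 748 and 296 CPM in islet libraries 2, 4 and 6, and to 375, 358 and 311 CPM in fat. In islet this was the order of Siglech, but also of most of the other genes described here. The part of plasmacytoid dendritic cells in the level of Siglech was not tested. Klk1, Ly6c2, Pacsin1 and Spib were at 0 in every islet library, and Klk1, Ly6d and Cd300c in every fat library. Siglech is at chromosome 7, 55768178 to 55778925.

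Golm1 encodes a Golgi membrane protein. Its level was 68.5, 95.5 and 43.0 CPM in islet and 15.8, 11.8 and 13.3 CPM in fat libraries 2, 4 and 6. The groups did not overlap, and the fitted difference was 5.04-fold (log2 2.33 ± 0.34). Of its merged exon length, 29.3% overlaps exons of Naa35 on the opposite strand, with the strand setting of the counting not given in the sources used here. Naa35 averaged 18.1 ± 11.3 CPM in islet against 17.8 ± 2.20 in fat (SD, n = 3 per tissue), with an edgeR adjusted p = 0.967. Golm1 is at chromosome 13, 59634626 to 59675811.

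Slc2a5 encodes GLUT5, the fructose transporter. It was counted at 15, 10 and 28 reads in islet libraries 2, 4 and 6 and at 0, 2 and 4 reads in the fat libraries, or 2.87 to 3.77 CPM against 0 to 0.471 CPM. Every islet library lay above every fat library. The fitted difference of 12.8-fold (log2 3.67 ± 1.10) had the widest error of the group, and moved between 3.05 and 4.53 when 1 fat library was left out. Slc2a5 is at chromosome 4, 150119283 to 150144169.

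Fcrls, a scavenger receptor related to Fc receptors, went the other way. Its level was 39.3, 45.0 and 25.3 CPM in islet libraries 2, 4 and 6 and 204, 244 and 310 CPM in the fat libraries. The highest islet library lay 4.53 times below the lowest fat library, and the fitted log2 difference was -2.80 ± 0.31. Islet macrophages kept a measurable amount, with 540 counts over the 3 libraries. Fcrls is at chromosome 3, 87250758 to 87263738.

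Gpr34 encodes a receptor for lysophosphatidylserine, a lipid. It stood at 32.1, 41.3 and 6.74 CPM in islet and 72.0, 103 and 57.4 CPM in fat libraries 2, 4 and 6. The groups came close, since the lowest fat library was 1.39 times the highest islet library. The log2 difference of -1.55 ± 0.56 was -1.09 without islet replicate 6 and -3.60 when neither islet library 2 nor 4 was used. Gpr34 (chromosome X, 13632089 to 13640858) lies within Cask on the opposite strand and shares no exon base with it. Cask, a scaffold kinase gene, fell 5.09-fold in islet (log2 -2.35 ± 0.24, edgeR adjusted p = 3.44e-04).

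Of the secreted proteins, Olfml3 is a glycoprotein with an olfactomedin domain. Its level was 161, 296 and 131 CPM in islet libraries 2, 4 and 6 and 6.71, 5.84 and 3.65 CPM in the fat libraries. The lowest islet library was 19.5 times the highest fat library, and the fitted difference was 36.0-fold (log2 5.17 ± 0.43). Olfml3 is at chromosome 3, 103722222 to 103738001.

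Sparc, a collagen-binding protein of the matrix that fibroblasts, endothelial cells and pericytes also make, was low in islet macrophages. It stood at 4.43, 8.60 and 2.02 CPM in islet and 133, 98.7 and 28.2 CPM in fat libraries 2, 4 and 6. Fat library 6 held 4.72 times less than fat library 2, the widest spread of any of the genes counted in every fat library. The log2 difference was -4.18 ± 0.69, and -4.79 without islet replicate 4. Sparc is at chromosome 11, 55394500 to 55423183.

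Stromal markers were lower in islet, as Sparc was. All 10 fibroblast markers tested fell in islet, as did 4 of 10 endothelial and 4 of 7 pericyte or stellate cell markers. Over all genes tested, 10.5% fell at an edgeR adjusted p below 0.05. In fat libraries 2, 4 and 6, Col3a1, a fibroblast collagen, stood at 174, 120 and 39.8 CPM, Pecam1 of endothelium at 38.3, 15.9 and 8.47 CPM and Rgs5 of pericytes at 90.3, 32.6 and 9.29 CPM, in the same order as Sparc. Other fibroblast genes had another order: Dcn was at 72.7, 92.7 and 16.8 CPM and Fn1, fibronectin, at 748, 530 and 1904 CPM. The whole fibroblast list summed to 1208, 896 and 2013 CPM in fat libraries 2, 4 and 6, highest where Sparc was lowest, and to 2.87 to 33.7 CPM in islet. Without Fn1, set aside after its values were seen, it summed to 459, 366 and 109 CPM in fat and 1.61 to 5.52 CPM in islet. The markers named beside Sparc were chosen with their values known. The endothelial list summed to 47.8 to 246 CPM in fat and 14.3 to 34.2 CPM in islet, and the pericyte list to 34.9 to 236 and 7.86 to 18.6 CPM. Col1a1, Dcn, Dpt, Fbln1, Lum, Mfap5 and Pdgfra had 0 counts in every islet library. The part of stromal RNA in the level of Sparc was not tested.

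**Figure D2:**
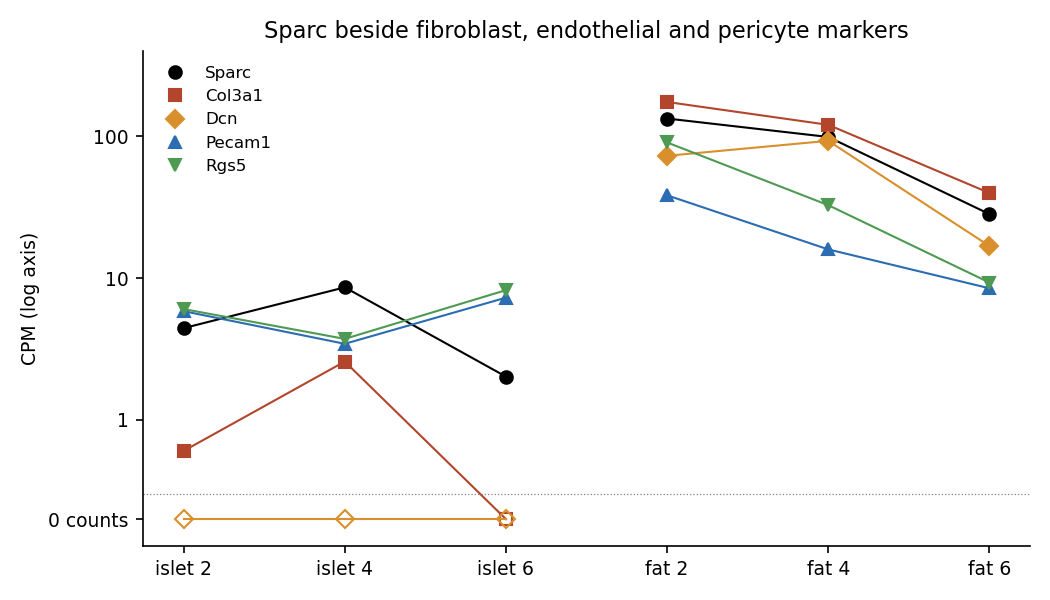
CPM (log axis) of Sparc and of markers of fibroblasts (Col3a1, Dcn), endothelium (Pecam1) and pericytes (Rgs5) in the 6 libraries, with open symbols for 0 counts. In fat, all 5 genes are lowest in library 6, where Sparc is at 28.2 CPM and Dcn at 16.8 CPM.

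Sall1, the factor of microglial identity, had 0 counts in all 6 libraries (chromosome 8, 89027235 to 89044162). A floor of 3 counts corresponds to 0.404 to 0.860 CPM in the islet libraries and 0.284 to 0.398 CPM in the fat libraries, so a lower level was not detectable at this depth. Its family was scarce too. Sall3 had no counts in any library, Sall4 had 4 counts in islet library 6 alone, and Sall2 averaged 6.87 ± 6.30 CPM in islet against 5.19 ± 2.36 in fat (edgeR adjusted p = 0.839).

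Within islet, 7 of the 8 detected genes were lowest in library 6, the library with little heat shock RNA, and highest in library 4. The highest library was 6.13 times the lowest for Gpr34, 4.26 times for Sparc, 3.49 times for Tmem119 and 2.25 times for Olfml3. Slc2a5 alone was highest in library 6. Without libraries 2 and 4, a setting that takes the spread from fat alone and assumes it for the 1 islet library, the log2 difference was 5.23 for Tmem119, 4.51 for Olfml3, 1.93 for Siglech and 1.57 for Golm1. It was -3.40 for Fcrls and -5.49 for Sparc. Every one of the 8 kept its direction in the 13 alternative settings, which by itself follows from groups that do not overlap.

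Levels between genes were compared per kilobase of merged exons (RPKM, with the same scaled library sizes). In islet macrophages the order from the top was Siglech at 55.5 ± 21.3 RPKM (SD, n = 3), Tmem119 at 54.4 ± 29.3 and Olfml3 at 31.8 ± 14.2. Fcrls followed at 15.7 ± 4.34, Golm1 at 15.6 ± 5.93 and Gpr34 at 12.8 ± 8.56 RPKM. Sparc at 1.32 ± 0.88 and Slc2a5 at 0.947 ± 0.142 RPKM closed the order. The library ranges of neighbours overlapped within the first 3, within the next 3 and between the last pair, and between Olfml3 and Golm1. Every library of Gpr34 lay above every library of Sparc. In fat macrophages Fcrls led at 108 ± 23.1 RPKM, above Gpr34 at 37.1 ± 11.2 and Sparc at 22.9 ± 14.1, whose ranges overlapped. The range of Sparc also reached that of Siglech. Siglech stood at 9.16 ± 2.21 and Golm1 at 3.08 ± 0.455 RPKM, while Olfml3 and Tmem119, at 0.876 ± 0.256 and 0.592 ± 0.278 RPKM, overlapped near the bottom. For scale, Csf1r, the growth factor receptor of macrophages and microglia, averaged 346 RPKM in islet and 361 RPKM in fat.

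**Figure D3:**
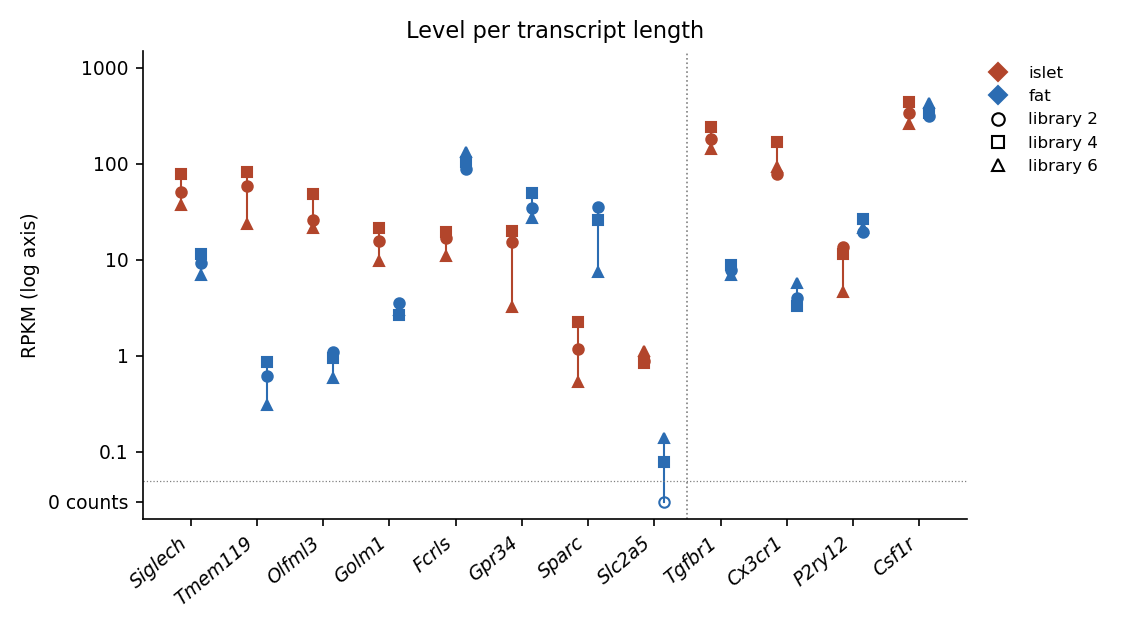
RPKM (log axis) of the 8 detected genes and, right of the dotted line, of 4 other microglia genes, in islet (red) and fat (blue) libraries, with lines over the library range. Siglech, Tmem119 and Olfml3 lead in islet and Fcrls and Gpr34 in fat, and Csf1r averages 346 and 361 RPKM in islet and fat.

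The wider microglia list, written without the 9 genes, held 49 genes, and 41 were tested. Of these, 13 rose in islet macrophages and 6 fell, or 31.7% and 14.6%, against 8.97% higher and 10.5% lower over all genes tested (edgeR's quasi-likelihood test, called at a Benjamini-Hochberg adjusted p below 0.05). The median log2 difference was 0.76, against 0.01 over all genes. Tgfbr1 rose 23.9-fold (1225 ± 321 against 51.3 ± 5.76 CPM, adjusted p = 9.44e-05). Cx3cr1, the fractalkine receptor, rose 26.2-fold, and Havcr2, the checkpoint receptor TIM-3, 91.9-fold. Trem2, a lipid receptor that also signals through Tyrobp, rose 3.13-fold (adjusted p = 0.00815, but 0.0537 without fat replicate 2).

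Other genes of the list did not rise. P2ry12, the ADP receptor at the surface of resting microglia, was at 34.3, 29.5 and 11.7 CPM in islet and 49.6, 68.3 and 54.5 CPM in fat libraries 2, 4 and 6. Every islet library was below every fat library, with a log2 difference of -1.20 ± 0.39 and an edgeR adjusted p = 0.0643. It passed as lower with the replicate number as a block (0.0433), with DESeq2 (0.0225), limma voom (0.0288) or no filter (0.00338), and without islet replicate 6 (0.0306). Over all settings its adjusted p ran from 1.34e-05, without islet libraries 2 and 4, to 0.180, without fat replicate 4. P2ry13, C1qa and Csf1r had log2 differences of 0.26 ± 0.66, 0.11 ± 0.34 and -0.06 ± 0.32 and did not pass. Mertk, a receptor for dying cells, fell 8.26-fold, Adgrg1, an adhesion receptor, 10.4-fold and Ltc4s, a leukotriene synthase, 28.4-fold, with 26.4% of its exons overlapping an antisense gene. The log2 difference of Ltc4s was -4.83, but -5.97 without islet replicate 4 and -4.12 without islet replicate 6, which held 0 counts of it. It was -11.9 without islet libraries 2 and 4, where that library alone stands for islet. The log2 difference of Mertk was -3.05, and -3.88 without islet libraries 2 and 4. Crybb1, Gal3st4, Nav3, Sall3 and Upk1b had no counts in any islet library. Gal3st4 and Sall3 had none in any fat library either, and 99.0% of Gal3st4's exons overlap another gene on the same strand. Without fat replicates 2, 4 and 6 in turn, 7, 8 and 8 genes rose and 3 fell each time, and 11 fell when neither islet library 2 nor 4 was used.

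**Figure D4:**
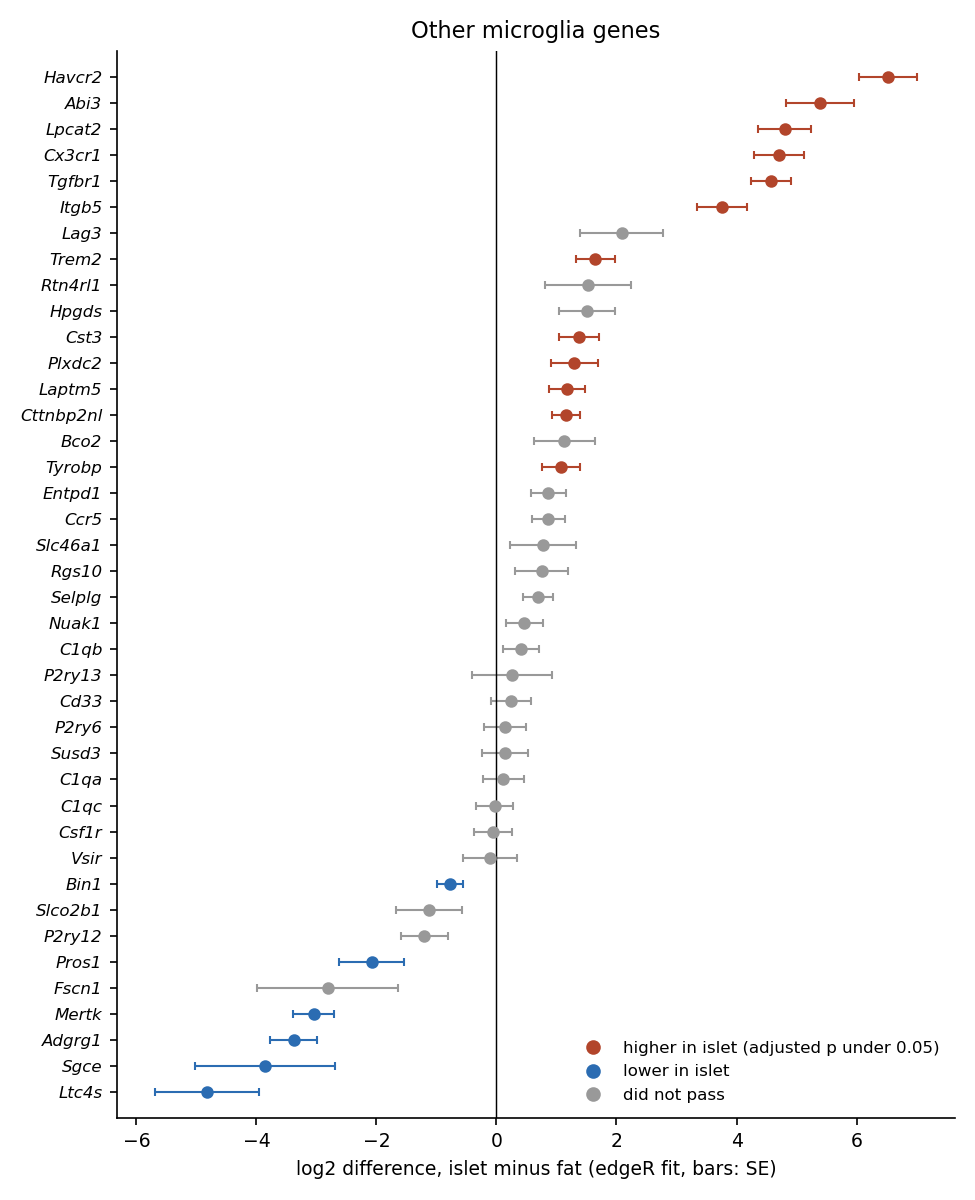
Fitted log2 difference, islet minus fat, with SE bars, for 40 of the 41 tested genes of the wider microglia list, coloured by the edgeR call at adjusted p under 0.05. Cx3cr1, Tgfbr1 and Havcr2 are among the 12 on the right in red, P2ry12 at -1.20 and Csf1r at -0.06 did not pass, and Ltc4s, Adgrg1 and Mertk are among the 6 in blue.

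The TGF-beta pathway, the signal that microglia depend on, was tested with 25 of 28 genes. In islet macrophages 8 rose and 5 fell, or 32% and 20%, against 8.97% and 10.5% over all genes tested. The median log2 difference of the pathway was 0.43. Pmepa1, a SMAD target that dampens the pathway, rose 69.2-fold (560 ± 206 against 8.10 ± 2.14 CPM, edgeR adjusted p = 9.19e-05). Smad7, the inhibitory SMAD, rose 19.9-fold (89.2 ± 18.7 against 4.47 ± 0.74 CPM, adjusted p = 8.81e-05). Nrros, which tethers latent TGF-beta on microglia, fell 4.76-fold, the co-receptor gene Eng 5.55-fold and Ltbp4, a latent TGF-beta binding protein, 33.4-fold. The log2 difference of Ltbp4 was -5.06, but -7.64 without islet replicate 6, which held 13 of its 14 islet counts, and -4.01 without islet libraries 2 and 4. That of Pmepa1 was 6.11, and 5.27 without those 2 libraries. Eng and Ltbp4 are also made by endothelial or stromal cells, whose markers were lower in islet as given above, and their part was not tested. Tgfb1 and Tgfbr2 did not pass (adjusted p = 0.795 and 0.371).

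Of 18 tested transcription factors of microglia and macrophages, 3 rose and 3 fell. That is 16.7% in each direction, against 8.97% higher and 10.5% lower over all genes tested. Bhlhe41 rose 24.2-fold (94.1 ± 34.8 against 3.86 ± 0.43 CPM, edgeR adjusted p = 1.16e-04). Irf8, a factor of microglial development, rose 2.49-fold and Cebpa 2.51-fold. Irf8 had an adjusted p = 0.0534 without fat replicate 2, and Cebpa 0.0719 and 0.0633 without fat replicates 2 and 4. Klf4 fell 34.5-fold, Klf2 22.6-fold and Maf 7.98-fold. The log2 difference of Klf2 was -4.50, but -5.12 without islet replicate 4 and -5.66 in limma voom. Without islet libraries 2 and 4 it was -8.12 for Klf2, -6.61 for Klf4 (-5.11 with all libraries) and -5.01 for Maf (-3.00). The number that rose was 1 without fat replicate 2. Those that fell numbered 6 in DESeq2, in limma voom and without islet replicate 6, 5 without islet replicate 4 or with no filter, and 11 when neither islet library 2 nor 4 was used. Spi1, the gene of the lineage factor PU.1, did not pass (adjusted p = 0.0833).

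Genes of activated microglia, such as those around plaques, rose in 13 of 25 and fell in 5. These shares were 52% and 20%, against 8.97% and 10.5% over all genes tested. Axl, a receptor for dying cells, rose 9.57-fold (1673 ± 185 against 175 ± 14.5 CPM, edgeR adjusted p = 1.84e-04). Itgax, the CD11c subunit, rose 40.6-fold and Cd9, a tetraspanin, 5.06-fold. Igf1, a growth factor gene, fell 33.4-fold, Ccl6, a chemokine, 17.4-fold and the protease gene Ctsl 2.44-fold. Of Ctsl's exons, 26.8% overlap an antisense gene and 6.09% a pseudogene on the same strand. The log2 difference of Igf1 was -5.06, but -5.90 without islet replicate 6 and -4.30 without islet libraries 2 and 4. That of Itgax was 5.34, and 5.97 without fat replicate 6, and that of Ccl6 -4.12, and -4.94 without islet libraries 2 and 4. The number that rose was 6 and 8 without fat replicates 2 and 4, while 3 fell without islet replicate 2 or fat replicate 4 or 6. The lists are not independent, since Trem2, Tyrobp, Tgfbr1, Sall3, Siglec1 and Cd33 each stand in more than 1. So do Spp1, Fscn1 and Ly6c2 when the lists of cell type markers are included.

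Genes of brain border macrophages, which sit in the meninges and along brain vessels, fell in 16 of 18 and rose in 1, Ms4a7. That is 88.9% lower and 5.56% higher, against 10.5% and 8.97% over all genes tested. The median log2 difference of the border genes was -6.00. Clec10a, a lectin gene, averaged 0.499 ± 0.632 CPM in islet against 488 ± 65.3 in fat (edgeR adjusted p = 9.79e-05). Folr2, a folate receptor, and Cd209f, another lectin, stood at 493 ± 74.3 and 486 ± 146 CPM in fat and at 0.336 ± 0.582 and 0.382 ± 0.662 CPM in islet, though 63.1% of Folr2's exons overlap an antisense gene. Ms4a7, used to tell border macrophages from microglia, rose 3.77-fold (370 ± 24.7 against 98.2 ± 28.1 CPM, adjusted p = 0.00225).

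**Figure D5:**
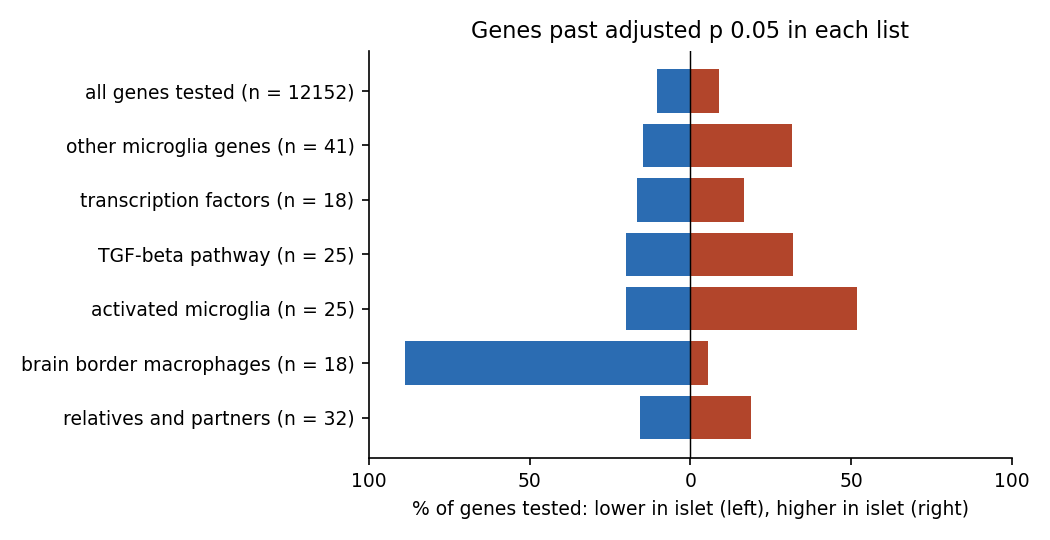
Percentage of tested genes past an adjusted p of 0.05 in each list, lower in islet to the left in blue and higher in islet to the right in red, with all 12152 genes tested at the top. Border macrophage genes are 88.9% lower, and activated microglia genes 52% higher.

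Relatives and partners of the 9 genes were listed too, and 32 of 58 were tested. In islet, 6 rose and 5 fell, or 18.8% and 15.6%, against 8.97% and 10.5% over all genes tested. Relatives did not all share the direction of the gene they were listed with. Fcrl1, a relative of Fcrls known from B cells, averaged 17.1 ± 4.96 CPM in islet and had 1 count in fat, a ratio of 488 (95% counting interval 86.9 to 19338), while Fcrls was higher in fat. Of 8 B cell markers listed, 4 were tested and 2 of them fell, and Cd79a, Ebf1 and Igkc were at 0 in every islet library. The list summed to 148, 222 and 38.0 CPM in islet libraries 2, 4 and 6, nearly all from Ighm at 146, 216 and 36.8 CPM, and to 186 to 268 CPM in fat. Cd79b was at 1.08 to 2.87 CPM in islet, and Cd22, a lectin of B cells, at 6.85, 15.8 and 1.48 CPM (log2 difference 3.40, edgeR adjusted p = 0.123). Their part in the level of Fcrl1 was not tested. Siglece, an inhibitory lectin gene, rose 3.72-fold, while Siglec1, a lectin of lymph node and other resident macrophages, fell 15.2-fold (log2 -3.93, and -5.75 without islet libraries 2 and 4). Tyrobp rose 2.10-fold (edgeR adjusted p = 0.0475), but had 0.0530 with RLE size factors and 0.0911 to 0.217 without any 1 library other than islet replicate 6.

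Among the glucose transporter relatives of Slc2a5, Slc2a1 rose 16.8-fold (65.2 ± 37.7 against 3.87 ± 1.33 CPM, edgeR adjusted p = 8.14e-04). Its log2 difference was 4.07, and 3.48 without islet replicate 2. Slc2a2, the transporter of beta cells, was at 14.7 ± 11.2 CPM in islet with 0 counts in fat, at least 42.8-fold higher with a floor of 3 counts per library. Khk, which phosphorylates fructose, did not pass (adjusted p = 0.231). Smoc2, of the Sparc family, averaged 6.19 ± 4.61 CPM in fat with 0 counts in islet, at least 9.93-fold lower, and had an adjusted p = 0.0672 without fat replicate 4. Relatives that fell numbered 3 without islet replicate 2 or fat replicate 2 or 4, and 10 when neither islet library 2 nor 4 was used, and those that rose numbered 10 with no filter.

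Endocrine RNA was present in the islet libraries. All 12 endocrine markers were higher there, against 8.97% of all genes tested. The 12 markers summed to 9622, 6252 and 3549 CPM in islet libraries 2, 4 and 6 and to 0 to 6.24 CPM in fat. Of the 12, 7 were at 0 in every fat library. Tmem119, Olfml3, Siglech and Golm1 were highest in library 4 and lowest in library 6. The part of endocrine RNA in the levels of these genes was not tested. Of the 10 Schwann cell markers, 2 were tested and neither passed. They summed to 54.0 to 74.1 CPM in islet and 33.0 to 47.1 CPM in fat, with Sox10 and Foxd3 at 0 in all 6 libraries.

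Markers of other cells that a sort could carry were measured as well. Over all genes tested, 8.97% rose and 10.5% fell. Of 9 adipocyte markers tested, 7 fell and 1 rose, and Adipoq, Plin1 and Lep were at 0 in every islet library. Of 5 monocyte markers 2 fell, of 8 classical dendritic cell markers 1 rose and 2 fell, and the 1 tested T or NK cell marker fell. Of 2 acinar markers 1 rose, all 3 tested ductal or mesothelial markers rose, and the 1 tested neutrophil or mast cell marker rose. The ductal or mesothelial list includes Spp1, which also stands among the genes of activated microglia. Acinar markers summed to 6.25, 107 and 19.1 CPM in islet libraries 2, 4 and 6, highest in library 4 as those genes were, and to 2.08 to 2.94 CPM in fat. Their part in the levels of the microglia genes was not tested.

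For 7 of the 9 genes, those whose mean log2 CPM reached 3, the nearest genes outside the lists were found by the distance between log2 CPM profiles centred on their own mean over the 6 libraries. The distance includes the difference between tissues, so it is a description only. Nearest to Tmem119 were Scg3, a granule protein gene of endocrine cells (distance 0.875), and Lrrc3 (1.11). Nearest to Olfml3 were AU020206 (0.60) and Resp18 (0.633), and nearest to Siglech Galnt12 (0.505) and Tctex1d2 (0.594). Golm1 lay closest to Mgat4a (0.248) and Slc44a2 (0.379). Mgat4a encodes a Golgi enzyme that builds N-glycans and had 202, 266 and 104 CPM in islet libraries 2, 4 and 6. Fcrls lay closest to Clmp (0.401) and Sulf2 (0.446), and Gpr34 to Stk17b (0.423) and Prelid2 (0.515). Sparc lay closest to C1s1 (0.922) and Hspg2 (1.13), and Hspg2 encodes perlecan, a basement membrane protein.

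Upstream sequence is shown for 3 of the genes that were higher in islet, where members that moved together can be compared. RefSeq (GRCm38.p6) upstream windows of 250 bases were matched for 7 of the 9 genes by symbol, and those printed end at the RefSeq start. Capitals mark matches, on either strand, to CAGAC, the SMAD box bound by the factors of TGF-beta signalling. The PU box GAGGAA, bound by PU.1, was searched in the same way, and with no match to it in the windows printed the 2 motifs do not overlap there.
Olfml3 (chr3:103738002-103738251, minus strand): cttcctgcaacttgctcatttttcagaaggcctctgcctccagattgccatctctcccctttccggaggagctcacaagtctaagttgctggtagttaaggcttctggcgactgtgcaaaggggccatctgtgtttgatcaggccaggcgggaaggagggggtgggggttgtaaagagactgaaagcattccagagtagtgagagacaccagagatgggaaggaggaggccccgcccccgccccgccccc
Siglech (chr7:55767934-55768183, plus strand): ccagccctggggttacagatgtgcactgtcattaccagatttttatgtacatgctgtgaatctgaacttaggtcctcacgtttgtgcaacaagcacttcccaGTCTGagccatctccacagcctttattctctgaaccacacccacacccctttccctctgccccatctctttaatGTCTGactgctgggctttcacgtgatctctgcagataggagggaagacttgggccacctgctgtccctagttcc
Golm1 (chr13:59675785-59676034, minus strand): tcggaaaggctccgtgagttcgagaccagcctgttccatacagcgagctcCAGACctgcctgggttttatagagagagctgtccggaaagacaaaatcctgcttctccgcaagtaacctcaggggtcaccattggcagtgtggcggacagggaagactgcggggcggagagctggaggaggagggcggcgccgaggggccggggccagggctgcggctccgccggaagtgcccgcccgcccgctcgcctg
Siglech held 2 SMAD box matches, Golm1 1 and Olfml3 none. Over the 7 genes, 6 had a SMAD box in at least 1 window and 1, Fcrls, a PU box. Of all 32851 RefSeq windows of this length, 42.2% held the SMAD box and 23.3% the PU box. The count over the 7 is of genes and these shares are of windows, so they are not comparable. Sall1 had several windows, with a SMAD box in only 1 of them. A match is a description of letters and not of binding.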

How the data were processed

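The authors deposited counts: the table holds unnormalised whole numbers, as its values show. Per the submitters' processing notes, STAR, featureCounts, Subread 1.6.4 and GRCm38 were used. Annotation and strand setting: not given in the sources used here. Symbols came from the table, and coordinates and merged exon lengths from GENCODE M21 (GRCm38).

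The fit used edgeR 4.0.16 in R 4.3.3: filterByExpr by tissue, TMM, a robust quasi-likelihood fit with tissue as the only term, and Benjamini-Hochberg adjustment over 12152 genes. The fit was tested on simulated data. SE is the absolute log2 difference divided by the square root of F. Alternatives were RLE factors, DESeq2 1.42.0, limma voom 3.58.1, no filter, a minimum of 1 CPM, the replicate number as a block, each library left out, and islet libraries 2 and 4 both left out. Equal numbers share a batch label and the design text calls the tissues autologous, so the block alternative treats them as pairs, while the values, SE and p printed come from the unpaired fit unless a setting is named. Deviations of equal numbers correlated at 0.044, 0.073 and 0.002 across genes, and those of unequal numbers at -0.14 to 0.10. Deviations from a mean of 3 libraries are tied to each other, so these values do not settle whether pairing matters. P-values set the tissue difference against the spread between these libraries. Whether that is a spread between single animals is not known, since the number of animals per library was not given.

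The 9 genes, lists and tests were chosen with earlier results of these data known. The rule for genes to name took the 9, the 3 sort genes, 10 microglia genes, the 3 smallest adjusted p values per list and direction, the 2 most abundant members of each marker list and the 2 nearest genes per profile. Other names, among them Tyrobp, Slc2a2, Naa35, Spi1, Khk and single markers, were chosen after their values were seen. Not every marker that the rule took is named in the text, and Cdh5 of endothelium and Myh11 of pericytes are among those left out. The lists also count single genes that are not reported here.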

Additional observations from a re-analysis of the deposited data

How the results depend on the processing

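Genes called over the whole table numbered 1090 higher and 1271 lower. Leaving out 1 library gave 466 to 1649 higher and 593 to 2022 lower, and leaving out islet libraries 2 and 4 together gave 2064 and 2916. With 1 library left out, the microglia list had 7 to 18 higher and 3 to 8 lower, the transcription factors 1 to 4 and 3 to 6, the TGF-beta pathway 7 to 10 and 4 to 6, the activated microglia genes 6 to 13 and 3 to 5, the border macrophage genes 1 and 15 to 16, and the relatives and partners 4 to 8 and 3 to 5. With islet libraries 2 and 4 both left out, 11 microglia genes, 11 factors and 10 relatives fell. The factors that fell numbered 6 in DESeq2, 6 in limma voom and 5 with no filter, and 10 relatives rose with no filter. With the replicate number as a block, 884 genes were higher and 1103 lower, 11 microglia genes rose and 6 fell, P2ry12 passed as lower, and Slc2a9, a transporter that was lower without the block (edgeR adjusted p = 0.0364), did not pass (0.0582). With the block, 4 transcription factors rose and 4 fell, so calls of list members outside the genes refitted by name changed as well. The block changed no other call among the genes refitted by name. Those leave out the cell type markers and Naa35, Khk, Spi1, Tgfb1, Tgfbr2, Sall2 and Cd22. Among the genes refitted, directions turned only for genes that had not passed: Adgre1 (-0.16 with islet libraries 2 and 4 left out), C1qa (-0.15 without islet replicate 4, -0.05 without fat replicate 2, -0.51 without islet libraries 2 and 4), Csf1r (0.10 without islet replicate 6, 0.07 without fat replicate 6) and P2ry13 (-0.53 in limma voom, -0.16 with the block, -0.63 without islet replicate 4, -2.16 without islet libraries 2 and 4). Leaving out 1 library gave C1qa -0.15 to 0.31, Csf1r -0.27 to 0.10 and P2ry13 -0.63 to 0.75. P2ry13, unlike the others, passed as lower without islet libraries 2 and 4 (edgeR adjusted p = 0.00175). The cause was not tested. Depth limits genes with few or no counts in a tissue, such as Sall1, Slc2a5, Slc2a2, Smoc2, Fcrl1, Folr2, Cd209f and, in fat, Tmem119.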
